A study of Mus musculus with 4 samples.

Results

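The genes described here are 10 matrix receptor genes: 8 integrin subunits (Itga2, Itga3, Itga5, Itgav, Itgb1, Itgb3, Itgb4 and Itgb5) and the discoidin receptors Ddr1 and Ddr2. They were taken from a table of 50600 genes by their symbols. All 10 were found, and 9 passed the filter for testing. The table holds RNA sequencing values of the mammary tumour cell line Py8119, which comes from C57BL/6 mice and is labelled mesenchymal-like. The control (labelled hygro) and the population with Mtss1 overexpression had 2 libraries each, and both were grown without treatment in the same serum-supplemented medium. The promoter that drives Mtss1, and whether a population is a pool or 1 clone, are not stated in the sources used here. The labels name no separate cultures behind the 2 libraries of a group, so p-values cover only the spread between libraries, and that spread may be technical.

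Integrins are heterodimers of an alpha and a beta subunit that cross the cell membrane, bind matrix outside and connect through talin and kindlin to actin inside. The alpha subunit largely sets the ligand: Itga1 and Itga2 bind collagen, Itga3, Itga6 and Itga7 bind laminin, and Itga5 and Itgav bind ligands with the RGD motif such as fibronectin and vitronectin. Itgb1 pairs with many alpha subunits, Itgb3 and Itgb5 pair with Itgav, and Itgb4 pairs with Itga6 in hemidesmosomes. Discoidin receptors are receptor tyrosine kinases that bind collagen directly, and Ddr1 is best known from epithelial and Ddr2 from mesenchymal cells.

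Values were in CPM (reads per 1000000, after a scaling that is not stated), and recovered depths ran from 15594209 to 22081639 reads per library. The columns summed to 1009970 and 1016225 in the control and to 982877 and 991293 with overexpression. Mtss1, which encodes the overexpressed membrane-bending scaffold protein, read 54.5 and 50.5 CPM in the control and 118 and 119 CPM with overexpression, in the direction of the labels. Differences covered much of the transcriptome: of 12510 genes tested, 66.1% passed a limma adjusted p of 0.05, 31.9% higher and 34.2% lower with overexpression. The groups did not overlap for 81.6% of them. The mesenchymal-like label was set against marker lists. Epcam and Krt19 were listed at 0 in all libraries and Cdh1 at no more than 0.092 CPM, and 3 of the 10 luminal markers passed the filter. Of these the keratin genes Krt8 (562 and 608 CPM in the control, 367 and 368 CPM with overexpression) and Krt18 fell, and the mucin gene Muc1 (0.637 and 1.01 CPM, then 1.58 and 1.61 CPM) rose. The call of Muc1 (log2 fold change 0.51) did not hold without control 1 (0.36, limma adjusted p = 0.25), overexpression 1 (0.52, adjusted p = 0.084) or overexpression 2 (0.51, adjusted p = 0.094), or with no filter (adjusted p = 0.057). Of 8 basal epithelial markers none passed the filter. In bulk RNA, fewer cells with a transcript and less of it per cell cannot be told apart.

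Of the 9 receptor genes tested, 6 rose with Mtss1 overexpression (Itga2, Itga3, Itga5, Itgav, Itgb1 and Itgb5), 2 fell (Ddr1 and Ddr2) and Itgb4 did not pass. These counts stand against 31.9% higher and 34.2% lower among all tested genes, and the 8 called genes that did not overlap between groups stand against 81.6%. The median log2 fold change of the 9 was 0.26, beside -0.01 for all tested genes. Itga2 is among the 9 and the 6, but it passed the filter only through the overexpression libraries. It could therefore be called higher but not lower. With a filter of 1 CPM in every library Itga2 was not tested, and 5 receptor genes were called higher. Fold changes here are differences of log2(CPM + 1), a scale on which changes of low genes appear smaller. Itgb3 was close to silent in both groups. The sizes were unequal: the fall of Ddr2 and the rise of Itga2 exceeded 1.5 log2 units, and the other 6 called genes stayed under 0.5.

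**Figure D1:**
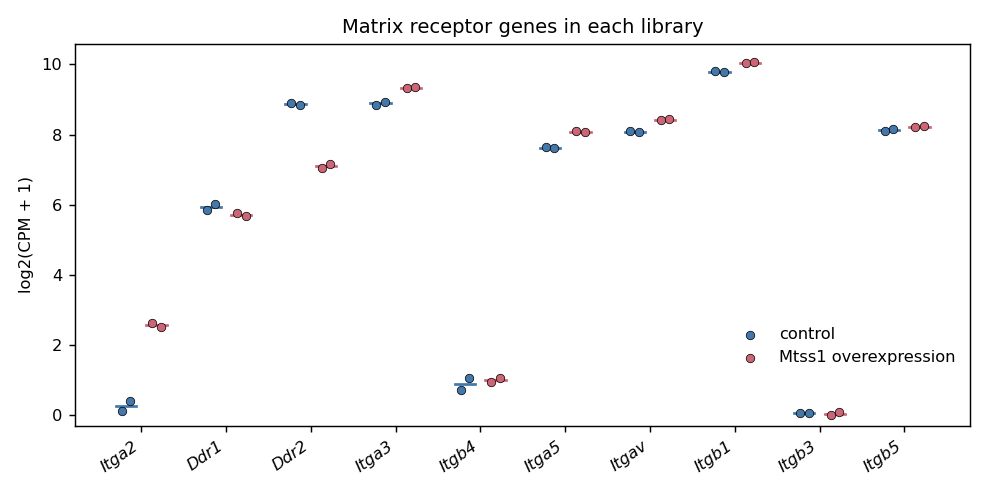
Level of each of the 10 receptor genes as log2(CPM + 1) on the vertical axis, with 1 point per library and a bar at the mean of the 2 libraries of a group (blue, control; red, Mtss1 overexpression). Ddr2 dropped from 467 to 136 CPM and Itga2 rose from 0.210 to 4.93 CPM, while Itga3, Itga5, Itgav and Itgb1 sat slightly higher with overexpression and Itgb3 lay near 0 in all 4 libraries.

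Among collagen receptors, Ddr2 (ENSMUSG00000026674) showed the largest fall of the 10 genes. The control libraries held 473 and 461 CPM and the overexpression libraries 132 and 141 CPM. Both overexpression libraries lay far below both control libraries. The mean went from 467 ± 8.40 to 136 ± 6.50 CPM (SD, n = 2), 0.292 of the control level (log2 fold change -1.77 ± 0.04, SE; limma adjusted p = 2.5e-20). Among all tested genes, 81 (0.647%) had a significant fall at least this large. In mm10 it spans chromosome 1 from 169972307 to 170110762, on the minus strand. Its exons share 90 bases with the antisense gene 3110045C21Rik, which read at most 2.08 CPM. Whether the counting used strand is not stated in the sources used here.

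Ddr1 (ENSMUSG00000003534, chromosome 17, 35681567 to 35704621), the epithelial relative of Ddr2, moved far less. It read 56.7 and 64.1 CPM in the control and 53.1 and 50.2 CPM with overexpression, so the groups did not overlap but control 1 and overexpression 1 were close. The log2 fold change was -0.22 ± 0.06 (SE), with a limma adjusted p of 0.0033. Without control 2 it was -0.13, with an adjusted p of 0.12, so the call rested on that library. Per kb of exon, Ddr1 stood at 0.233 and 0.270 of the level of Ddr2 in the control and at 0.782 and 0.691 with overexpression. The log2 ratio of Ddr1 to Ddr2 was -1.98 ± 0.15 in the control and -0.43 ± 0.12 with overexpression (SD, n = 2), a difference of 1.55. The exact two-sided permutation p was 0.333, the smallest that 2 against 2 libraries can give. Per kb, Ddr2 was above Ddr1 in every library.

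The summed level of the fibroblast markers was lower with overexpression, as was Ddr2, but its members moved both ways. The 10 genes summed to 299 and 313 CPM in the control and to 180 and 185 CPM with overexpression. Of the 5 tested, 3 fell and 2 rose, where 34.2% of all tested genes fell and 31.9% rose. Col1a1 rose (log2 fold change 0.76, 1.26 to 2.82 CPM), as did Pdpn (1.64, 0.212 to 2.80 CPM). Pdpn passed the filter only through the overexpression libraries. Col1a2 (-1.23, 101 to 42.4 CPM), Pdgfrb (-1.18, 9.17 to 3.45 CPM) and Pdgfra (-0.57) fell. Pdgfra, the receptor gene for platelet-derived growth factor that made up most of the sum, read 191 and 196 CPM in the control and 129 and 132 CPM with overexpression. Dpt and Fap were at 0 in all libraries. The part of these markers in the fall of Ddr2 was not tested.

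Itga2 (ENSMUSG00000015533), the alpha subunit of the collagen-binding alpha2 beta1 integrin, showed the largest rise of the 10 genes, from a level near silence. Control 1 held 0.098 and control 2 held 0.322 CPM, from 2 and 7 reads. Overexpression 1 held 5.17 and overexpression 2 held 4.70 CPM, from 82 and 79 reads, so the groups were far apart. The ratio over the pooled reads was 23.1, with a 95% exact interval of 11.9 to 51.4 that covers counting error only. The log2 fold change was 2.30 ± 0.19 (SE; limma adjusted p = 2.8e-10). Itga2 passed the filter only through the overexpression libraries, so it was not tested when either was left out. The fitted value depends on how low values are treated: it was 0.93 with a pseudocount of 5, 4.12 with a pseudocount of 0.1 and 4.58 with limma-voom. In the main fit 105 genes (0.839%) had a significant rise at least this large.

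The other collagen-binding integrin subunits were read from a list of the 18 integrin subunits outside the 10 genes. Itga1, the alpha subunit of alpha1 beta1, had 0 reads in both control libraries, and 6.81 and 7.92 CPM with overexpression, from 108 and 133 reads. Against a floor of 3 reads per control library its mean was at least 51.7-fold higher. Like Itga2, Itga1 passed the filter only through the overexpression libraries. Itga10 read 2.41 and 2.52 CPM in the control and 2.08 and 1.25 CPM with overexpression and did not pass (log2 fold change -0.40 ± 0.19, limma adjusted p = 0.067). It passed without overexpression 1, where the value was -0.62 and the adjusted p 0.020. Itga11 had at most 0.184 CPM in any library.

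Itga1 and Itga2 are neighbours on the minus strand of chromosome 13, with 20995 bases between them. Itga2 spans 114833081 to 114932100 and Itga1 spans 114953096 to 115101964 (mm10). The protein-coding genes around them, named after their values were seen, were expressed in both groups or under the filter. Pelo, a ribosome rescue factor gene inside the span of Itga1, read 15.1 and 15.2 CPM in the control and 17.6 and 15.4 CPM with overexpression (log2 fold change 0.11 ± 0.10, limma adjusted p = 0.35). Mocs2, a molybdenum cofactor synthesis gene on the other side of Itga2, read 35.5 and 32.7 CPM in the control and 39.0 and 40.2 CPM with overexpression (0.21 ± 0.07, adjusted p = 0.010). It did not pass without control 2 (0.15, adjusted p = 0.13) or without overexpression 2 (0.19, adjusted p = 0.053). Ndufs4, a respiratory complex I subunit gene farther along, had a log2 fold change of -0.15 ± 0.07 (limma adjusted p = 0.055). Ndufs4 kept this result in 7 of 11 alternative fits and passed as lower in some, with fitted changes from -0.20 to -0.089. Fst, the follistatin gene between Ndufs4 and Mocs2, stayed under the filter, with 0 and 0.092 CPM in the control and 0.630 and 1.07 CPM with overexpression. Next to Itga1 and Itga2, which were near 0 in the control, the tested genes beside them had fitted changes of 0.21 or less in size. Fst, which was not tested, was also near 0 in the control and read higher with overexpression (means of 0.046 and 0.851 CPM).

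**Figure D2:**
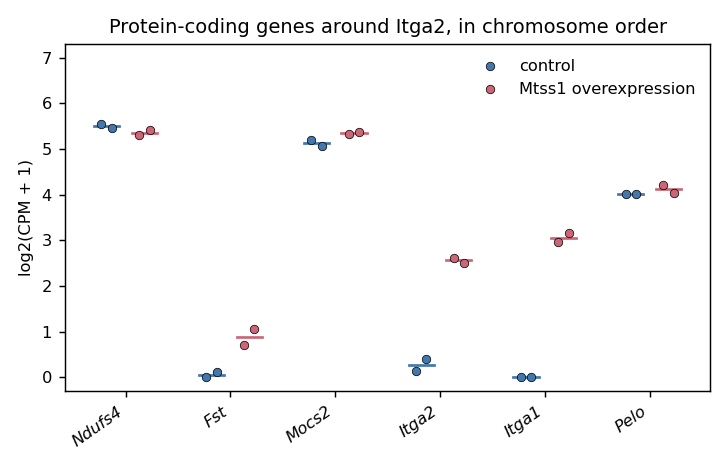
Protein-coding genes around Itga2 in chromosome order, with log2(CPM + 1) per library on the vertical axis and a bar at each group mean (blue, control; red, Mtss1 overexpression). Itga2 and Itga1 go from 0.210 and 0 CPM to 4.93 and 7.36 CPM, while Ndufs4, Mocs2 and Pelo have log2 fold changes of -0.15, 0.21 and 0.11. Fst, under the filter and not tested, goes from 0.046 to 0.851 CPM.

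The sequence upstream of the start site is shown for the members whose RefSeq start coincides with the outermost start of the GENCODE M21 gene model, so that Itga2 can be set beside abundant integrin genes with smaller changes. RefSeq (GRCm38.p6) entries matched 8 of the 10 genes. That of Ddr2 lies 21818 bases inside its gene model and is not shown. The 250 bases before the start lie at chr13:114932101-114932350 on the minus strand for Itga2, chr2:83724147-83724396 on the plus strand for Itgav, chr8:128685404-128685653 on the plus strand for Itgb1 and chr16:33829415-33829664 on the plus strand for Itgb5. Capitals mark matches to 6 motifs searched on both strands: AP-1 (TGACTCA), TEAD (GGAATG), SP1 (GGGCGG), the E-box CACCTG, the TATA box (TATAAA) and the NF-kB consensus.
Itga2: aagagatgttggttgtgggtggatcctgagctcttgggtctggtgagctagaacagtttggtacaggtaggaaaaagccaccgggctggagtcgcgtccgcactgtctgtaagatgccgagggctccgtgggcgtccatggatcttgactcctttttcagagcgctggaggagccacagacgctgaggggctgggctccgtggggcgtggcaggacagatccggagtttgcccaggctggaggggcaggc
Itgav: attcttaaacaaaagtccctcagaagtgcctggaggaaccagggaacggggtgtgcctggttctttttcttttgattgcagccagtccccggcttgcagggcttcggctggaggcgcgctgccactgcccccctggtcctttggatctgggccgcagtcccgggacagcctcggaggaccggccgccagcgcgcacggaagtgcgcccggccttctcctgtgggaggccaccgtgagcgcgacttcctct
Itgb1: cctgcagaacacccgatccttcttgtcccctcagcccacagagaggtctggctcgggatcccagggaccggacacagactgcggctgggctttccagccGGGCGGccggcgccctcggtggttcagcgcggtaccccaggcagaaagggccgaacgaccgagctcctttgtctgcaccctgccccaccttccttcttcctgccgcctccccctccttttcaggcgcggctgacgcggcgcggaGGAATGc
Itgb5: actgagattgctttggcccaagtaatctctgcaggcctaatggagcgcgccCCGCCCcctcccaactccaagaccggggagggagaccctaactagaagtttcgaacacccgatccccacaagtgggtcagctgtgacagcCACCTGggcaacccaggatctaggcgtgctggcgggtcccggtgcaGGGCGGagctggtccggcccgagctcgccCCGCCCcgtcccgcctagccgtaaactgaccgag
The windows of Itga2 and Itgav held none of the 6 motifs. That of Itgb1 held 1 SP1 match, 151 bases before the start, and 1 TEAD match, 7 bases before it. That of Itgb5 held 3 SP1 matches and 1 E-box, and no match overlapped another. Among 32851 promoter windows of the same length, 32.7% held an SP1 match, 12.6% a TEAD match, 17.2% an E-box, 12.4% a TATA box, 7.25% an NF-kB match and 4.46% an AP-1 match. G and C made up 60.8% of the Itga2 window, 64.4% of Itgav, 68.0% of Itgb1 and 65.2% of Itgb5, beside a median of 52.4% over all windows.

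Among laminin receptors, Itga3 (ENSMUSG00000001507, chromosome 11, 95044474 to 95076801), the alpha subunit of the epithelial laminin receptor alpha3 beta1, rose. It read 461 and 486 CPM in the control and 642 and 651 CPM with overexpression. The groups were well apart, with means of 473 ± 17.3 and 646 ± 6.16 CPM (SD, n = 2), 36.6% higher with overexpression. The log2 fold change was 0.45 ± 0.03 (SE; limma adjusted p = 1.3e-10).

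Other laminin-binding alpha subunits outside the 10 genes rose too. Itga6 read 162 and 161 CPM in the control and 236 and 240 CPM with overexpression (log2 fold change 0.56 ± 0.04, limma adjusted p = 1.2e-11). Itga7, best known from muscle, went from 18.7 and 20.2 CPM to 89.5 and 93.3 CPM (2.18 ± 0.06, adjusted p = 5.1e-18). The groups did not overlap for Itga3, Itga6 or Itga7, as for 81.6% of all tested genes.

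Itgb4 (ENSMUSG00000020758, chromosome 11, 115974709 to 116008412), the beta partner of Itga6 that anchors hemidesmosomes to keratins, stayed at the edge of detection. It read 0.637 and 1.10 CPM in the control and 0.945 and 1.07 CPM with overexpression, from 13, 24, 15 and 18 reads, and the groups overlapped. Its log2 fold change was 0.11 ± 0.20 (SE; limma adjusted p = 0.64), with a 95% interval of -0.31 to 0.53. On this scale of log2(CPM + 1), changes of a gene this low appear smaller. The ratio over its pooled reads was 1.15, with a 95% exact interval of 0.70 to 1.89 that covers counting error only. Both intervals include no change, so neither a rise nor a fall was resolved at this depth. Its exons share 537 bases with the antisense gene B230344G16Rik, which read at most 0.343 CPM. Of 6 hemidesmosome genes 3 passed the filter. Of these, Itga6 rose (0.56 ± 0.04) and the plakin linkers Dst (-0.47 ± 0.03) and Plec (-0.28 ± 0.04) fell. Among all tested genes 31.9% rose and 34.2% fell. Krt5 was at 0 in all libraries.

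Of the RGD-binding subunits among the 10 genes, Itga5, Itgav and Itgb5 rose by less than 0.5 on the log2 scale, and Itgb3 was not tested. Itga5 (ENSMUSG00000000555, chromosome 15, 103344286 to 103366763), the alpha subunit of the fibronectin receptor alpha5 beta1, read 198 and 194 CPM in the control and 273 and 268 CPM with overexpression. The groups were far apart relative to their spread, and the mean was 38.1% higher, with a log2 fold change of 0.46 ± 0.04 (SE; limma adjusted p = 1.9e-10). Itgav (ENSMUSG00000027087, chromosome 2, 83724397 to 83806916), which binds vitronectin and latent TGF-beta with several beta partners, read 271 and 268 CPM in the control and 342 and 345 CPM with overexpression. Replicates of Itgav lay close together, and its mean was 27.4% higher (log2 fold change 0.35 ± 0.03, adjusted p = 8.5e-09). Its exons share 634 bases with Gm13684 on the other strand, which read at most 0.350 CPM.

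Itgb1 (ENSMUSG00000025809, chromosome 8, 128685654 to 128733200), the common beta partner, read 894 and 884 CPM in the control and 1044 and 1080 CPM with overexpression. Its mean rose by 19.6%, with no overlap between groups (log2 fold change 0.26 ± 0.03, SE; limma adjusted p = 4.5e-07). Itgb5 (ENSMUSG00000022817, chromosome 16, 33829665 to 33949338), the vitronectin-binding partner of Itgav, read 274 and 283 CPM in the control and 296 and 300 CPM with overexpression. The 6.94% rise of Itgb5 was the smallest called change among the 10 genes (0.097 ± 0.036, adjusted p = 0.021). The call did not hold without control 1 (0.073, adjusted p = 0.16), without overexpression 2 (0.088, adjusted p = 0.094) or with no filter on low genes (adjusted p = 0.059).

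Itgb3 (ENSMUSG00000020689, chromosome 11, 104608000 to 104670476), the beta partner of Itgav and Itga2b in platelets, endothelium and osteoclasts, had 1 read in each control library and 0 and 1 reads with overexpression. Both groups lay under the floor of 3 reads, so no fold is given. Its partner Itga2b, outside the 10 genes, rose from 5.73 and 5.11 CPM to 12.8 and 13.0 CPM (log2 fold change 1.12 ± 0.12, limma adjusted p = 5.7e-08). The platelet genes Pf4 and Gp9 had at most 0 and 0.092 CPM.

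**Figure D3:**
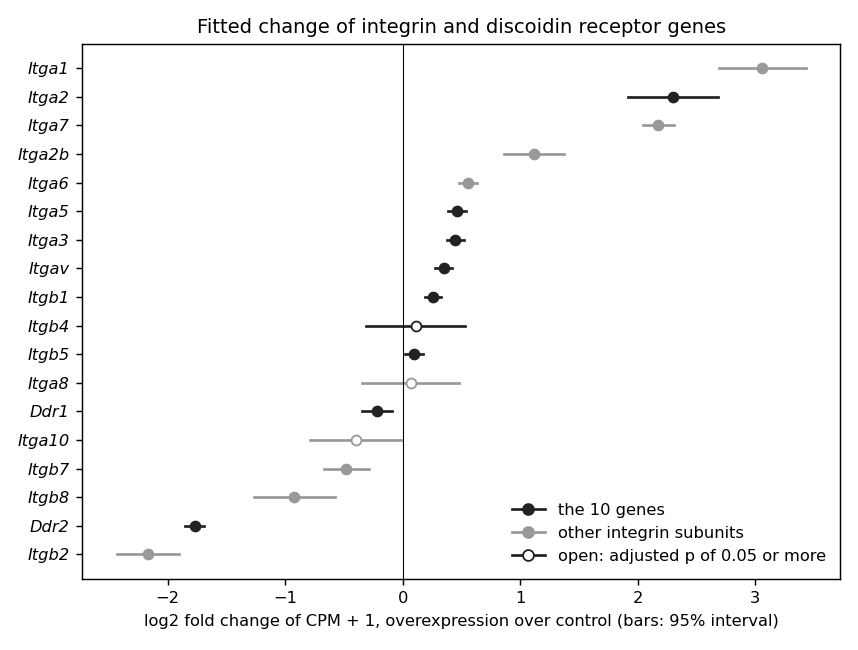
Fitted log2 fold change of CPM + 1 (overexpression over control, horizontal axis) with its 95% interval for each integrin or discoidin receptor gene that passed the filter, the 10 genes in black and other integrin subunits in grey, with open points where the adjusted p was 0.05 or more. Itga1, Itga2 and Itga7 lie above 2, Ddr2 and Itgb2 lie near -2, and the abundant receptors Itga3, Itga5, Itgav and Itgb1 cluster between 0.26 and 0.46.

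Of the 18 other integrin subunits, 9 passed the filter, 4 rose and 3 fell, which is 77.8% called beside 66.1% of all tested genes. In the main fit all 4 that rose were alpha subunits (Itga1, Itga2b, Itga6 and Itga7) and all 3 that fell were beta subunits. Of these, Itga1 passed the filter only through the overexpression libraries, so it could not be called lower. The alpha subunit Itga10 did not pass in the main fit, but its fitted change was negative in every alternative, from -0.62 to -0.17. Itgb2, the beta subunit of leukocyte integrins, dropped from 17.6 and 21.1 CPM to 3.47 and 3.57 CPM (log2 fold change -2.17 ± 0.13, limma adjusted p = 1.2e-12). Its partner Itgal had at most 0.063 CPM, and Itgam, Itgax and Itgad were at 0 in all libraries. The leukocyte marker Ptprc read at most 0.098 CPM, and Cd3e was at 0 in all libraries. The 12 immune and platelet markers, Itgb2 and Itga2b among them, summed to 45.6 and 47.5 CPM in the control and to 113 and 113 CPM with overexpression. Cd68, a lysosomal glycoprotein gene, made up most of the latter sum, with 91.9 and 92.4 CPM. Itgb7 (-0.48 ± 0.09) and Itgb8 (-0.92 ± 0.17), a partner of Itgav, fell as well, and Itga8 did not pass (1.47 and 0.966 CPM in the control, 1.58 and 1.07 CPM with overexpression).

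Levels of different genes were compared per kb of merged exons (GENCODE M21). In the control the order from high to low was Itgb1, Itga3, Itgb5, Ddr2, Itga5, Itgav, Ddr1, Itgb4, Itga2 and Itgb3. Itgb1 stood at 218 CPM per kb, ahead of Itga3 at 82.9 and Itgb5 at 78.5. The last 3 places rested on few reads, from 1 to 24 per library, so their order in the control is not firm. With overexpression Ddr2 moved from rank 4, at 50.4 CPM per kb, to rank 6, at 14.7, below Itga5 (54.8) and Itgav (32.0). Itga2 overtook Itgb4 there, at 0.692 against 0.144 CPM per kb. No neighbours in either order overlapped in their 2 libraries.

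Per kb, Itgb1 made up 70.6% and 69.5% of the summed beta subunits in the control and 73.9% and 74.4% with overexpression. Itgb5 made up 24.9% and 25.6% in the control and 24.1% and 23.7% with overexpression. The summed alpha subunits went from 168 and 171 CPM per kb to 241 and 243, and the summed beta subunits from 310 and 311 to 346 and 356. Itga3 gave 48.0% and 49.6% of the alpha sum in the control and 46.7% and 47.0% with overexpression. These shares depend on the length used. Itga6 has 9025 bases of merged exons against 4310 in its longest transcript, and Itga3 has 5710 against 4861. Shares with the longest transcript were not computed. Despite its large fold rise, Itga2 gave no more than 0.301% of the alpha sum in any library.

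**Figure D4:**
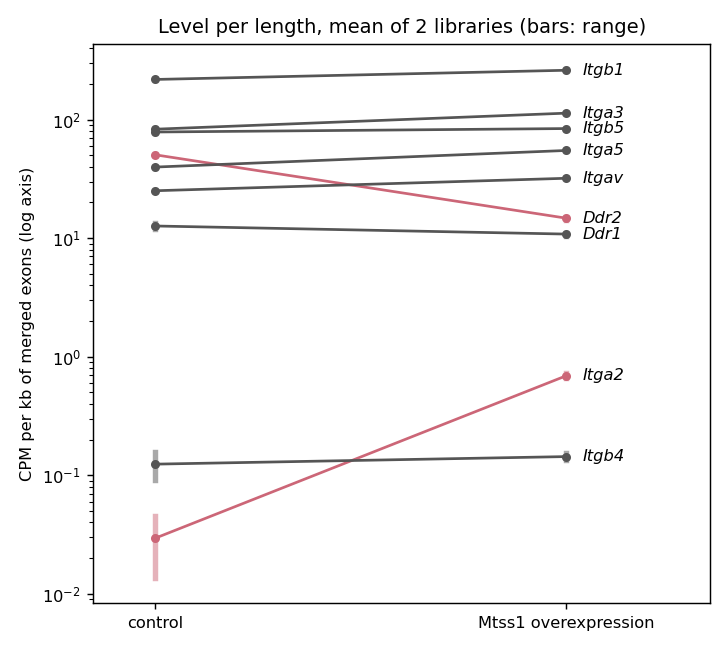
Level per length of 9 receptor genes in the control and with Mtss1 overexpression, in CPM per kb of merged exons on a log axis; points are means of 2 libraries and thick bars their range, with Itga2 and Ddr2 in red. Ddr2 crosses below Itga5 and Itgav, from 50.4 to 14.7 CPM per kb, and Itga2 crosses above Itgb4; Itgb3 is left out because 1 of its libraries is at 0.

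Genes whose centred log2(CPM + 1) over the 4 libraries lay closest to that of Ddr2 were Adcy7 (Euclidean distance 0.029), Pla2g2e (0.042) and Rin2 (0.066). Those closest to Itga2 were Nod1 (0.106), Hspa1b (0.111), which has a near-identical paralog, and Asrgl1 (0.116). With 2 groups of 2 libraries these distances describe mainly the size of 1 difference.

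Among the collagen and laminin chain genes that could be tested, more were called higher than lower, where all tested genes gave 31.9% higher and 34.2% lower. Of 13 collagen chain genes 8 passed the filter, and 7 rose and 1 fell, with a median log2 fold change of 1.00 beside -0.01 for all tested genes. Col6a2 (1.68 ± 0.19) and Col6a1 (1.61 ± 0.07), chains of microfibrillar collagen VI, rose most. Col1a2, a chain of fibrillar collagen I, fell from 101 to 42.4 CPM (-1.23 ± 0.05). Of 11 laminin chain genes 7 passed the filter, 5 rose, 1 fell and 1 did not pass, with a median of 0.44. Col6a2 and Lamb3 passed the filter only through the overexpression libraries. Lama5, the alpha chain of laminins bound by Itga3 and Itga6 integrins, rose from 321 to 796 CPM (1.31 ± 0.03), and Lamb3 rose by 1.17 ± 0.19 on the log2 scale from 0.425 CPM. Without overexpression 1, 3 laminin genes rather than 5 were called higher.

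Ligands with RGD motifs and other glycoproteins moved both ways. Of 19 genes 14 passed the filter, 7 rose, 5 fell and 2 did not pass (85.7% called, beside 66.1% of all tested genes), with a median of 0.10. The matricellular genes Nov (2.56 ± 0.16, 0.898 to 10.2 CPM) and Ctgf (2.29 ± 0.12) rose most. Nov read 0.784 and 1.01 CPM in the control, so it met the filter through the overexpression libraries. Its fitted value ran from 1.36 to 3.48 over 10 alternative fits. Thbs2 (1.81 to 0.158 CPM, -1.29 ± 0.21) and Edil3 (-0.79 ± 0.12), whose product binds Itgav integrins, had the largest fitted falls, but Thbs2 passed the filter only through the control libraries. Fn1, the fibronectin gene, was added with its value known because fibronectin binds Itga5 integrins: it fell from 9942 to 8102 CPM (-0.30, limma adjusted p = 5.8e-07), opposite in direction to Itga5. Vtn, the vitronectin gene, had a control mean of 0.023 CPM and was at 0 with overexpression.

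Of 29 genes that activate integrins or bind their tails, 26 passed the filter, 9 rose, 9 fell and 8 did not pass, with a median of 0.01. The 69.2% called was close to the 66.1% of all tested genes. Lims2 (1.94 ± 0.11, 6.29 to 27.1 CPM) and Lims1 (0.51 ± 0.04), the PINCH adaptors of integrin-linked kinase, rose most. Tns1, a tensin that binds beta tails (-1.85 ± 0.13, 13.0 to 2.88 CPM), and Parva, the parvin partner of the same kinase (-0.72 ± 0.04, 202 to 122 CPM), fell most.

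**Figure D5:**
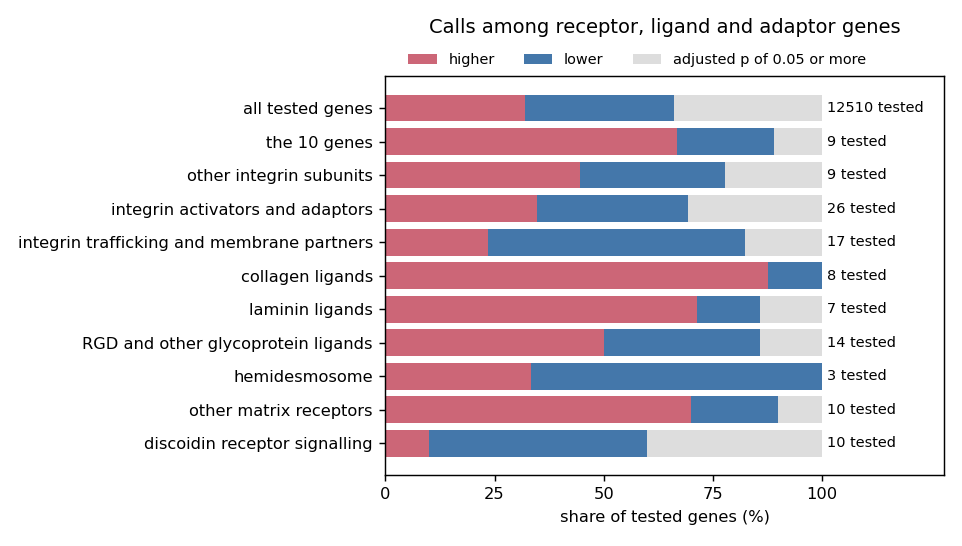
Share of tested genes (horizontal axis, percent) called higher (red), lower (blue) or neither (grey) at a limma adjusted p of 0.05 among all tested genes, the 10 receptor genes and each related list, with the number tested at the right. Higher calls make up 7 of 8 tested collagen and 5 of 7 tested laminin genes and 9 of 26 activators and adaptors, beside 31.9% of all tested genes.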

How the data were processed

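RNA was extracted with Trizol and read as paired ends of 150 bases, per the labels' protocols. FastQC 0.11.2, STAR, RSEM and the mm10 build are named in the submitters' processing notes, with no roles given. The deposited values are CPM, an assignment made from the values: the 4 columns sum to between 982877 and 1016225. What scaled them is not stated in the sources used here. Values were multiples of a step per library, and 79.6% to 80.5% of nonzero values were whole reads within 0.005 read, so reads quoted here are recovered expected counts (15594209 to 22081639 per library). Between replicates, the median chi-square of counts was 2.03 (control) and 1.77 (overexpression) times the sampling value. Each library was kept as its own replicate. Spread above the sampling value does not show whether the libraries came from separate cultures.

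Testing used limma 3.58.1 in R 4.3.3 on log2(CPM + 1) with a mean-dependent prior, over the 12510 genes that reached 1 CPM in 2 or more libraries, adjusted by Benjamini-Hochberg at 0.05. The limma fit was tested on simulated counts in which far fewer genes changed than were called here. Coordinates and exon lengths came from GENCODE M21, which matched 50376 of 50600 identifiers. Where several rows shared a symbol, that of highest mean was used. The members, lists and rules were chosen with earlier results of these data known. The text names the 10 genes, Mtss1, other integrin subunits past the filter, up to 2 rises and 2 falls per list, and the 3 genes closest in pattern to the members with the largest rise and fall. Marker genes, Fn1 and the neighbours of Itga2 were named after their values were seen. Some list genes that meet these rules are not reported here. Protein sequences were not used here.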

Additional observations from a re-analysis of the deposited data

How the results depend on the processing

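The 10 receptor genes, named list genes and counts were recomputed under 11 alternatives: pseudocounts of 0.1 and 5, no filter, a filter of 1 CPM in every library, median-of-ratios scaling, limma-voom, a replicate block and leaving out each library. Members called higher numbered 4 to 6 and members called lower 1 to 2 when a library was left out; the 1 came without control 2, where Ddr1 did not pass. Without an overexpression library Itga2 and Itga1 were not tested, nor was Itgb4 without control 2 or overexpression 2. Itga3, Itga5, Itgav, Itgb1 and Ddr2 kept their direction and call in all 11. With a library left out, Itgb4 ran from -0.068 (without control 1) to 0.16, and Itga8 from -0.097 (without control 2; -0.089 without overexpression 1) to 0.23, and neither passed in any direction. The cause was not tested. The difference in the log2 ratio of Ddr1 to Ddr2 was 1.44 to 1.65 with a library left out. Ranks by level were the same with the longest transcript as length. Replicate numbers did not pair the libraries (correlation of deviations -0.02). The fit with the replicate block called 4040 genes higher and 4337 lower, beside 3991 and 4282, and left all calls among the 10 genes as they were. Median-of-ratios scaling shifted the median log2 fold change by 0.01. Depth limits Itgb3, Itgb4 and, in the control, Itga2.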

Other observations

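Matrix receptors outside the integrin and discoidin families moved as well. Of 14, 10 passed the filter, 7 rose, 2 fell and 1 did not pass, with a median log2 fold change of 0.33; among all tested genes 31.9% rose and 34.2% fell. Sdc3, a heparan sulfate syndecan, rose from 26.7 ± 1.01 to 319 ± 3.81 CPM (SD, n = 2; log2 fold change 3.53 ± 0.05 SE, limma adjusted p = 2.8e-24). Cd36, a scavenger and thrombospondin receptor gene, had a control mean of 0.046 CPM and 2.62 CPM with overexpression, and passed the filter only through the overexpression libraries. Mrc2, an endocytic collagen receptor, fell from 89.1 to 31.9 CPM (-1.45 ± 0.06). The collagen receptors Ddr1 and Ddr2 fell too, while the collagen-binding subunits Itga1 and Itga2 rose and Itga10 did not pass. The syndecan Sdc2 fell by 0.38 ± 0.04 on the log2 scale.

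Of 18 integrin trafficking genes and membrane partners, 17 passed the filter, 4 rose, 10 fell and 3 did not pass, with a median of -0.16. The 82.4% called stands beside 66.1% of all tested genes, with 31.9% higher and 34.2% lower. The recycling GTPase genes Rab11a (0.35 ± 0.05) and Arf6 (0.31 ± 0.04) rose most, and Rcc2 (-0.82 ± 0.04, 383 to 217 CPM) and Cd47 (-0.38 ± 0.04), an Itgav-associated membrane protein, fell most. All 10 genes for proteins that act with discoidin receptors passed the filter: 1 rose, 5 fell and 4 did not pass. The 60% called was close to the 66.1% of all tested genes. The adaptor Nck1 rose by 0.30 ± 0.08 and Nmi (-0.88 ± 0.09) and the adaptor Shc1 (-0.32 ± 0.04) fell most.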
